A study of Mus musculus with 6 samples.

Results

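The hepatocytes of the liver lobule divide their work by position between the portal tract, where blood enters, and the central vein, where it leaves. Genes of 2 such zones were followed here in livers of mice fed a regular or a soy-enriched diet. The list was given by name and holds 31 genes, of which 16 are pericentral markers or targets of WNT signalling and 15 are periportal markers. All 31 were found on the array among 22911 genes with a symbol, matched by RefSeq accession and each taken by its brightest probe. Histidase (Hal) stood among the pericentral genes in the list, whereas it is a known periportal enzyme, and it was counted as periportal, with the values under the list's own order given beside the zone counts.

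RNA came from the livers of 6 male mice, 12 weeks old when the diets began, with 1 single-colour Agilent array per mouse. The control group (3 mice) received 100% regular food for 4 weeks, and the soy group (3 mice) received 75% regular food mixed with 25% soy bean powder for the same 4 weeks. Tissue was taken from the right hepatic lobe away from the major vessels, and the hour of collection is not given in the sources used here. Slide 1 carried control 1, control 2 and soy 1, slide 2 carried soy 2, and slide 3 carried control 3 and soy 3. All values below are normalized signals on the log2 scale or their differences, soy minus control, and all samples are bulk tissue, in which fewer cells of a type and less RNA per cell cannot be told apart.

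Around the central vein, endothelial cells release WNT ligands, and β-catenin with factors of the TCF/LEF family switches on pericentral genes in the nearest hepatocytes. R-spondins strengthen the signal through LGR receptors by holding back the ubiquitin ligases RNF43 and ZNRF3, which remove WNT receptors. Pericentral hepatocytes capture ammonia as glutamine and carry much of the drug-metabolizing P450 activity, while periportal hepatocytes take up and break down amino acids, make urea and release glucose.

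The TCF/LEF core was looked for in the promoters, because WNT targets are known to be bound by TCF/LEF factors. The letters CTTTGAT were searched on both strands (ATCAAAG when read on the other strand) from 250 bases before to 50 bases after the gene start in the RefSeq promoters of GRCm38.p6, in which 20 of the 31 genes were matched. Those not matched are Lgr5, Znrf3, Tbx3, Rhbg, Rgn, Gulo, Sdsl, Cdh1, Apof, Cyp17a1 and Rida. The letters occurred in 3 of 10 pericentral genes (Slc1a2, Lect2 and Sp5) and in 1 of 10 periportal genes (Hal), or in 4 of 11 and 0 of 9 with Hal placed by list order, and in 4.29% of all promoters in the table (1160 of 27025 genes). A match is a description of the letters and not of a bound site. Other spellings of the core and sites farther from the gene start were not searched. A missing match therefore does not show that a gene lacks control by WNT. The 60 bases around each match are given 5′ to 3′ on the strand of the gene, with the matched letters in capitals. They lie at chr2:70474793-70474852 (plus strand) for Sp5, chr2:102706205-102706264 (plus) for Slc1a2, chr13:56548539-56548598 (minus) for Lect2 and chr10:93488543-93488602 (plus) for Hal, all before the gene start.
Sp5: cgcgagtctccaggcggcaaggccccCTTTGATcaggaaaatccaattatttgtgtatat
Slc1a2: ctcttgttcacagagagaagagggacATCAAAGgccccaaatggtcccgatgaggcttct
Lect2: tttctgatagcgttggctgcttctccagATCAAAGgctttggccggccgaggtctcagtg
Hal: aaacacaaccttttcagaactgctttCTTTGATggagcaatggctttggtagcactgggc

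None of the 31 zonation genes passed the thresholds for soy against control. These were a Benjamini-Hochberg adjusted p below 0.05 in limma and a fold of more than 1.5 or less than 0.66. Over all genes 0.458% passed (105 of 22911), so few that none among 31 does not set the list apart. The widest differences were in 1 gene of each zone. Oat, a pericentral enzyme of ornithine metabolism, was 2.42-fold lower in soy livers, and Etnppl, a periportal enzyme that breaks down phosphoethanolamine, was 2.36-fold higher, both just outside the adjusted threshold. The classical markers Glul, Cyp2e1, Cyp2f2 and Hal differed by less than 0.5 on the log2 scale. At an unadjusted p under 0.05 stood 6 of the 31 genes (Oat lower, and Lgr5, Rnf43, Etnppl, Ctnnbip1 and Rida higher), where 14.3% of all genes did. The groups did not overlap in 4 genes that were higher in soy (Lgr5, Rnf43, Etnppl and Rida), against 9.68% of all genes. They did not overlap in 2 genes that were lower (Oat and Sp5), against 10.8% of all genes. All 31 genes were well above background on all 6 arrays, and none was saturated. When each array was left out in turn, the differences of Oat, Lgr5, Etnppl, Ctnnbip1 and Rida stayed within 1.5 times of their value, and those of the other 26 genes moved farther or changed sign at least once. Of 59305 spots on an array, 37010, 36366 and 38163 were well above background in control livers and 31308, 31988 and 32498 in soy livers.

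**Figure D1:**
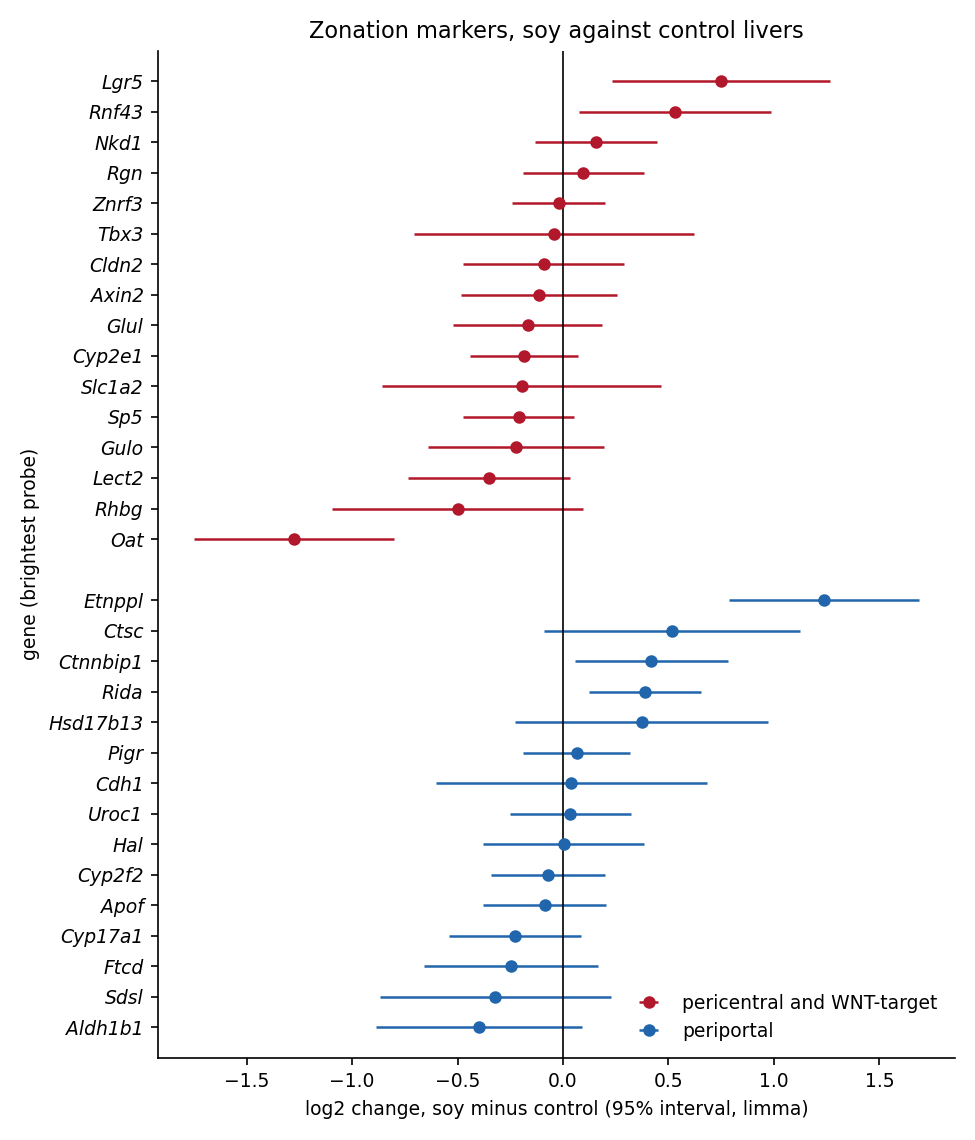
Log2 change, soy minus control, of each of the 31 zonation genes (point) with its 95% interval from limma (line), pericentral and WNT-target genes in red and periportal genes in blue. The intervals of 25 genes cross 0, those of Oat (-1.28) and Etnppl (1.24) lie farthest from it, and those of Lgr5, Rnf43, Ctnnbip1 and Rida lie above it.

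By zone, the 16 pericentral and WNT-target genes had a median change of -0.14, with 4 higher and 12 lower in soy and a range from -1.28 to 0.75. The 15 periportal genes had a median of 0.034, with 9 higher and 6 lower and a range from -0.40 to 1.24. Over all genes the median was -0.0056, with 48.8% higher in soy. With Hal placed by the order of the list, the medians were -0.11 over 17 genes (5 higher, 12 lower) and 0.037 over 14 (8 higher, 6 lower). A change under 0.5 in size was found in 26 of the 31 genes (83.9%) and in 92.3% of all genes. Neither zone was set apart by diet on all arrays. The median deviation of the pericentral genes from their control mean was -0.15, 0.044 and 0.090 in control livers and -0.052, -0.12 and -0.20 in soy livers. Control 1 thus lay below soy 1 and soy 2. For the periportal genes the deviations were 0.016, 0.0066 and -0.16 in control livers and -0.0035, 0.11 and 0.069 in soy livers, and soy 1 lay below control 1 and control 2. Within slide 1 the median change was 0.018 for the pericentral and -0.063 for the periportal genes, and within slide 3 it was -0.33 and 0.27, so the direction of neither zone was the same within both slides. With slide as a block the medians were -0.16 and -0.021, and soy 2, alone on slide 2, adds nothing to that estimate. Without control 3 the pericentral median was -0.0099 and the periportal median -0.038.

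**Figure D2:**
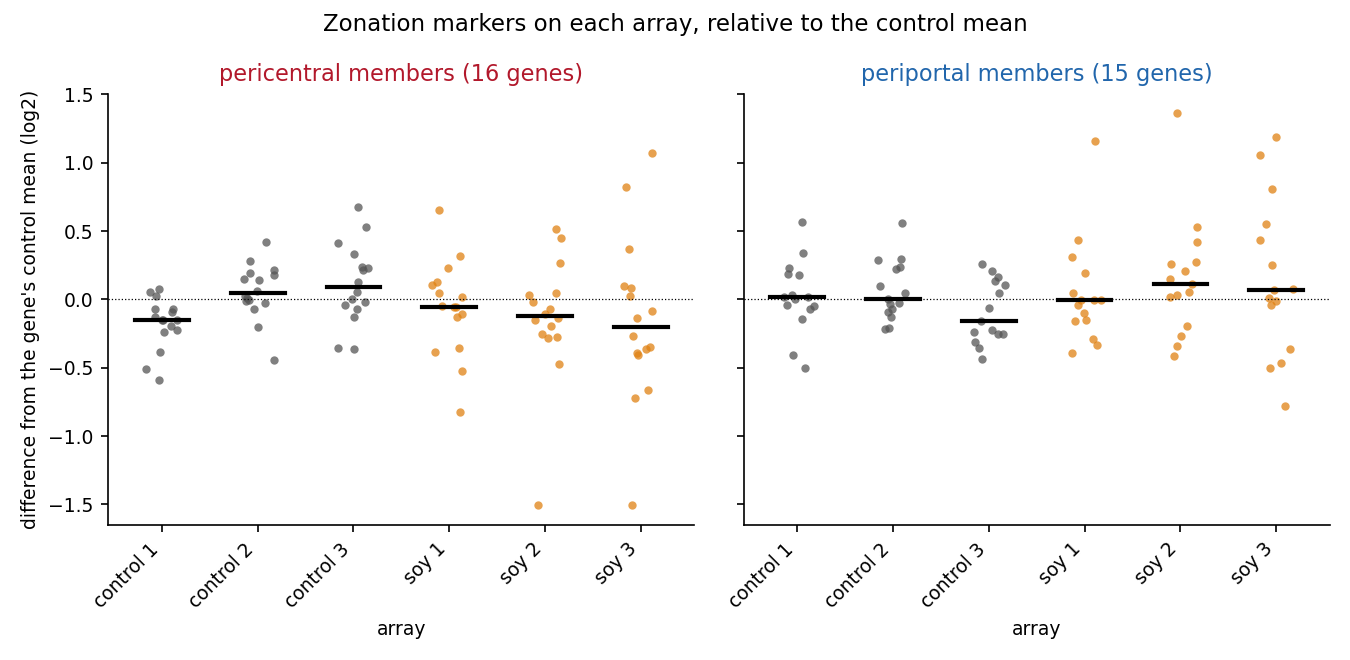
Difference of each zonation gene from its own control mean (log2) on each of the 6 arrays, control arrays in grey and soy arrays in orange, with the zone's median as a black bar. The pericentral medians lie between -0.15 and 0.090 on control arrays and between -0.20 and -0.052 on soy arrays, and the lowest points on soy 2 and soy 3 are Oat.

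Of the pericentral genes, 7 were read together as components, regulators or transcription factors of the WNT pathway. Among them Lgr5 and Rnf43 were higher in soy without overlap. Lgr5 (NM_010195), a receptor for R-spondins, gave 8.47, 8.96 and 8.19 in control livers and 9.19, 9.06 and 9.61 in soy livers. Every soy value lay above every control value, although soy 2 exceeded control 2 by little. The difference was 0.75 (SE 0.22, 95% interval 0.23 to 1.27, adjusted p = 0.254). Rnf43 (NM_172448), the ligase that takes WNT receptors off the membrane, gave 11.02, 11.22 and 10.58 in control livers and 11.26, 11.39 and 11.76 in soy livers. The groups did not overlap, with control 2 just below soy 1, and the difference was 0.53 (SE 0.20, adjusted p = 0.357). For both genes the difference was wider within slide 3 (1.43 and 1.18) than within slide 1 (0.48 and 0.14).

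The other genes of the pathway lay closer to 0. Axin2 (NM_015732), a scaffold of the β-catenin destruction complex and a direct WNT target, gave 7.80, 8.02 and 8.25 in control livers and 7.67, 7.95 and 8.11 in soy livers. The ranges overlapped, with soy 1 below all controls and control 3 above all soy values, and the difference was -0.11 (95% interval -0.48 to 0.25, adjusted p = 0.829). Sp5, a transcription factor whose promoter carries the TCF/LEF letters shown above, gave 8.71, 8.68 and 8.67 in control livers and 8.64, 8.49 and 8.30 in soy livers. All soy values of Sp5 were the lower ones, by a narrow margin on soy 1, and the difference was -0.21 (SE 0.11, adjusted p = 0.535). Nkd1, a feedback inhibitor of WNT signalling, differed by 0.16 (adjusted p = 0.679), and Tbx3, a transcription factor, by -0.041 (adjusted p = 0.972). Znrf3, the second ligase of the R-spondin branch, differed by -0.020 (adjusted p = 0.955) on its brightest probe and by -0.43 (adjusted p = 0.196) on its dimmest (NM_001080924), where the groups did not overlap. Ctnnbip1 (NM_023465), which is listed as periportal and keeps β-catenin from binding TCF factors, gave 10.91, 11.25 and 10.70 in control livers and 11.39, 11.23 and 11.51 in soy livers. Soy 2 lay just under control 2, so that the groups overlapped, and the difference was 0.42 (SE 0.16, adjusted p = 0.364). On its dimmer probe the groups did not overlap and the difference was 0.51 (adjusted p = 0.317).

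Nitrogen handling next to the central vein is represented by 4 genes, each with a lower mean in soy, and their median change was -0.35. The median was -0.031 within slide 1, where Glul (0.19) and Slc1a2 (0.35) were higher in soy 1, and -1.03 within slide 3, and the median over all slides was -0.17 without control 3 and -0.53 without control 1. Oat (NM_016978), ornithine aminotransferase, which turns ornithine towards glutamate, gave 15.49, 15.57 and 15.85 in control livers and 14.81, 14.13 and 14.13 in soy livers. The groups were far apart, with soy 1 the nearest to the controls. The difference was -1.28 (SE 0.20, 95% interval -1.75 to -0.80, unadjusted p = 0.000294, adjusted p = 0.0591), and it was -0.71 within slide 1 and -1.72 within slide 3. Oat passed with the processed signal, with a 75th-percentile shift, with dim probes left out, with trend and robust variance settings and without soy 1 (adjusted p = 0.0381), and its adjusted p over all alternatives lay between 0.00981 and 0.242. Glul (NM_008131), glutamine synthetase, which fixes ammonia into glutamine in the last cells before the central vein, gave 15.23, 15.40 and 15.51 in control livers and 15.51, 15.11 and 15.02 in soy livers. Soy 1 equalled the highest control while the other soy arrays lay below all controls. The difference was -0.17 (95% interval -0.52 to 0.19, adjusted p = 0.724), and the other Glul probes gave -0.099 and 0.018. Slc1a2 (NM_001077514), a glutamate transporter, gave 12.51, 12.31 and 13.42 in control livers and 12.77, 12.28 and 12.62 in soy livers. Control 3 alone stood above the rest, and the difference was -0.20 (95% interval -0.86 to 0.46, adjusted p = 0.836), or 0.14 without control 3. Rhbg (NM_021375), an ammonium transporter, gave 10.62, 11.11 and 11.66 in control livers and 10.61, 10.87 and 10.41 in soy livers. Control 3 was again the highest, and the groups overlapped. The difference was -0.50 (SE 0.26, adjusted p = 0.514), or -0.23 without control 3 and -0.75 without control 1.

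Further pericentral genes showed differences under 0.5 in size. Cyp2e1 (NM_021282), the P450 that oxidizes ethanol and paracetamol, gave 18.63, 18.58 and 18.50 in control livers and 18.51, 18.42 and 18.22 in soy livers. The groups overlapped by soy 1 alone, and the difference was -0.19 (95% interval -0.44 to 0.071, adjusted p = 0.582). Lect2, a secreted hepatocyte protein and WNT target, differed by -0.35 (adjusted p = 0.477). The difference of Gulo, the last enzyme of vitamin C synthesis, was -0.22 (adjusted p = 0.687). Rgn, the calcium-binding lactonase of the same pathway, differed by 0.096 (adjusted p = 0.814), and the tight-junction protein Cldn2 by -0.092 (adjusted p = 0.872), with 0.25 on its dimmer probe.

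**Figure D3:**
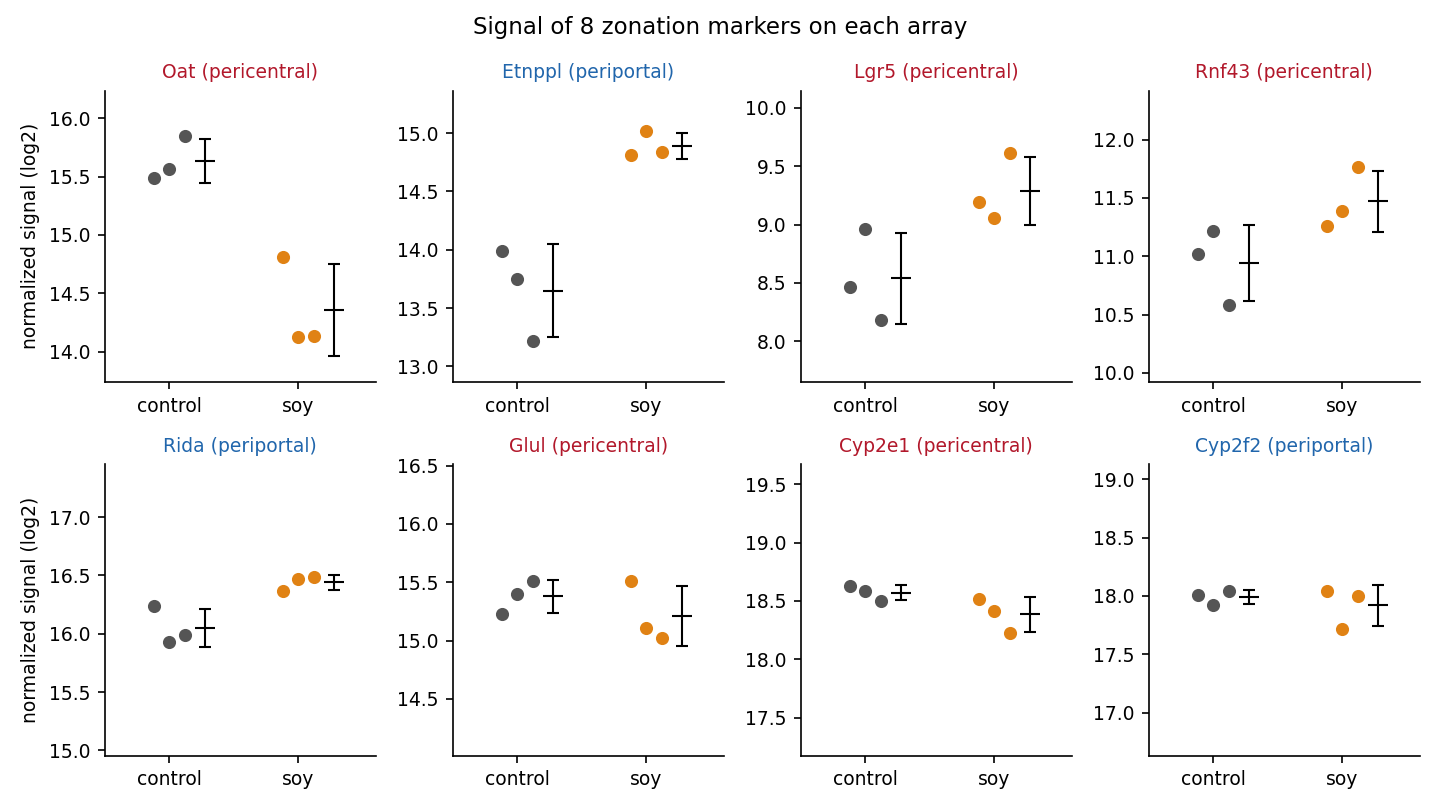
Normalized signal (log2) of 8 zonation genes on the 3 control arrays (grey) and the 3 soy arrays (orange), with the mean and SD of each group in black and the same span of signal in every panel. Groups are apart for Oat, Etnppl, Lgr5, Rnf43 and Rida and overlap for Glul, Cyp2e1 and Cyp2f2.

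Among the periportal genes of amino acid breakdown, the groups overlapped for each listed step of histidine breakdown. Hal (NM_010401), which takes the first step, gave 14.79, 15.06 and 14.46 in control livers and 14.67, 14.92 and 14.73 in soy livers. The soy values fell inside the control range, and the difference was 0.0026 (95% interval -0.38 to 0.38, adjusted p = 0.998). Uroc1, urocanase, which takes the next step, differed by 0.034 (adjusted p = 0.941), and Ftcd, which passes the one-carbon unit of histidine to folate, by -0.25 (adjusted p = 0.650). Sdsl, a serine dehydratase-like enzyme, differed by -0.32 (adjusted p = 0.657). Its difference was -0.036 without control 1, its highest array, and -0.50 without control 3. Rida (NM_008287), a deaminase that clears reactive by-products of amino acid metabolism, gave 16.24, 15.93 and 15.99 in control livers and 16.37, 16.47 and 16.48 in soy livers. All soy values were above the controls, and the difference was 0.39 (SE 0.11, adjusted p = 0.247). It was 0.28 within slide 1 and 0.49 within slide 3, and the groups of its dimmer probe did not overlap either (0.29, adjusted p = 0.414).

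The remaining periportal genes have various roles, and Etnppl stood out among them. Etnppl (NM_027907) gave 13.99, 13.75 and 13.21 in control livers and 14.81, 15.01 and 14.84 in soy livers. The soy values lay close together and well above the controls, of which control 3 was the lowest. The difference was 1.24 (SE 0.19, 95% interval 0.79 to 1.69, unadjusted p = 0.000258, adjusted p = 0.0560), with 0.94 within slide 1 and 1.62 within slide 3. The dimmer probe differed by 1.12 (adjusted p = 0.0947), also without overlap. Etnppl passed with the processed signal, with dim probes left out, with trend and robust variance settings and without control 3 (adjusted p = 0.0491), and its adjusted p over all alternatives lay between 0.0181 and 0.186. Ctsc (NM_009982), a lysosomal protease, gave 11.98, 11.77 and 12.18 in control livers and 11.94, 12.51 and 13.04 in soy livers. Soy 1 lay within the control range and soy 3 far above it. The difference was 0.52 (95% interval -0.092 to 1.12, adjusted p = 0.510), or 0.24 without soy 3 and 0.79 without soy 1. Hsd17b13, a lipid-droplet protein, differed by 0.37 (adjusted p = 0.638) on its brightest probe, by 0.12 without control 1 and by 0.86 as the mean of its probes. Its dimmer probe differed by 1.35 (SE 1.07, adjusted p = 0.682), with control values from 7.86 to 10.90 and soy values from 8.11 to 11.49.

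For the widely used periportal markers, the control and soy values overlapped. Cyp2f2 (NM_007817), a P450 of the portal zone, gave 18.01, 17.92 and 18.04 in control livers and 18.04, 17.72 and 18.00 in soy livers. Soy 2 was the lowest, and the difference was -0.071 (95% interval -0.34 to 0.20, adjusted p = 0.857). Cdh1 (NM_009864), E-cadherin, gave 10.10, 11.06 and 10.35 in control livers and 10.11, 10.76 and 10.76 in soy livers. Its control arrays spanned the soy arrays, and the difference was 0.040 (95% interval -0.60 to 0.68, adjusted p = 0.972). Pigr (NM_011082), the receptor that carries immunoglobulin A into bile, gave 16.50, 16.54 and 16.68 in control livers and 16.57, 16.78 and 16.56 in soy livers. These groups overlapped, with a difference of 0.064 (95% interval -0.19 to 0.32, adjusted p = 0.863). Cyp17a1 (NM_007809), a steroid hydroxylase, gave 14.01, 13.96 and 14.19 in control livers and 13.72, 14.07 and 13.69 in soy livers. Soy 1 and soy 3 lay below all controls and soy 2 among them, and the difference was -0.23 (adjusted p = 0.581). Apof, an apolipoprotein, differed by -0.087 (adjusted p = 0.834), and Aldh1b1, a mitochondrial aldehyde dehydrogenase, by -0.40 (adjusted p = 0.529), or -0.21 without soy 3.

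Other genes of WNT signalling and of both zones were read from lists written from general knowledge. None of them passed by its brightest probe. The 28 further genes of WNT signalling had a median change of 0.076, with 15 higher and 13 lower, and the median was 0.0085 without control 1 and 0.012 without soy 3. Of these, 5 were higher without overlap (Wnt2, Fzd7, Tcf7l2, Gsk3b and Fzd6) and 1 was lower (Lrp6), where 9.68% and 10.8% of all genes were higher and lower without overlap. Wnt2 (NM_023653), a ligand made by liver endothelial cells, gave 9.20, 9.30 and 9.40 in control livers and 10.04, 9.83 and 9.85 in soy livers. Its soy values were all above its controls, with a difference of 0.60 (SE 0.11, adjusted p = 0.0806). Fzd7, a WNT receptor, differed by 0.80 (adjusted p = 0.196) and Tcf7l2, the main TCF factor of hepatocytes, by 0.65 (adjusted p = 0.0955). Lrp6, a WNT co-receptor, differed by -0.43 (adjusted p = 0.337). In the R-spondin branch, the groups of the receptor Lgr4 overlapped (-0.0024, from -0.031 without soy 3 to 0.042 without soy 2). Those of the ligands Rspo1 (-0.39, from -0.65 without control 2 to -0.12 without soy 2) and Rspo3 (0.19, or 0.098 without control 1) overlapped too. Rspo1 was well above background on 2 of the 3 soy arrays. Sfrp1, a secreted inhibitor, was well above background on no array.

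The 15 other pericentral genes had a median of 0.047, with 8 higher and 7 lower, and 9 of them (60%) differed by under 0.5 in size, against 92.3% of all genes. The groups did not overlap in 3 genes that were higher (Aldh1a1, Aldh3a2 and Nr1i3, against 9.68% of all genes) and in 4 that were lower (Cyp2c29, Cyp2c37, Cyp2c50 and Lhpp, against 10.8%). Their median was 0.27 within slide 1 and -0.23 within slide 3, and it ranged from -0.18 (without control 1) to 0.23 (without control 2). Nr1i3, the nuclear receptor CAR, gave 9.35, 9.37 and 9.69 in control livers and 10.29, 10.43 and 10.31 in soy livers on a dimmer probe (NM_001243062). The groups were apart on this probe, which rose in soy by 0.87 (adjusted p = 0.0426). It did not pass with slide (0.171) or the replicate number (0.102) as a block, with an offset of 16 (0.0964), or without control 1, control 2 or any 1 soy array (0.105 to 0.161). The brightest Nr1i3 probe differed by 0.85 without passing (adjusted p = 0.0877). Aldh3a2, a fatty aldehyde dehydrogenase, gave 13.76, 13.40 and 14.07 in control livers and 15.28, 14.89 and 14.86 in soy livers. All its soy values exceeded the controls, with a difference of 1.27 (SE 0.19, adjusted p = 0.0529). The P450 genes Cyp2c37 and Cyp2c50 differed by -0.82 (adjusted p = 0.146) and -0.81 (adjusted p = 0.0725), so the pericentral enzymes with the widest differences did not share a direction. The 11 other periportal genes, of the urea cycle, gluconeogenesis and amino acid breakdown with the steroid dehydrogenase Hsd17b6, had a median of -0.47, with 2 higher and 9 lower, and without 1 array it ranged from -0.58 (without soy 1) to -0.31 (without control 1). The groups did not overlap in 4 genes that were lower (Ass1, Cps1, Sds and Pck1, against 10.8% of all genes). At an unadjusted p under 0.05 stood 6 of the 11, all lower (these 4, G6pc and Gls2), where 14.3% of all genes did in either direction. Of the 15 other pericentral genes it was 6, with 3 in each direction. Sds, serine dehydratase, differed by -1.13 (adjusted p = 0.152), and Pck1, a rate-setting enzyme of gluconeogenesis, by -0.84 (adjusted p = 0.0568). Hsd17b6 differed by 0.79 (adjusted p = 0.494), or 0.46 without control 3. The medians of this list were -0.39 within slide 1 and -0.30 within slide 3, on the same side of 0, whereas the 15 periportal zonation genes had a median of 0.034.

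**Figure D4:**
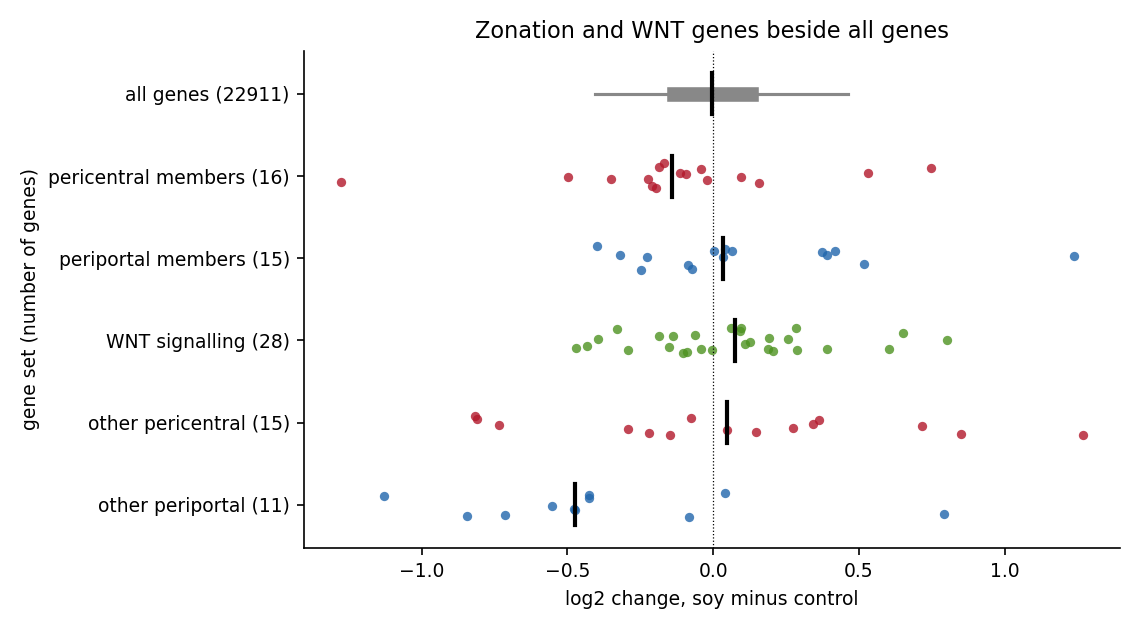
Log2 change, soy minus control, of the pericentral and periportal zonation genes and of 3 further lists (points), with the median of each as a black bar. The grey bars show the 25th to 75th and the 5th to 95th percentiles of all 22911 genes, and the other periportal genes have the lowest median (-0.47).

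Markers of the cells a piece of liver can hold were read on the same arrays, and their part in the differences above was not tested. Signals were summed over the genes of a list and are given in units of 1000. General hepatocyte genes (7) had a median change of -0.14 (-0.041 without soy 3) and summed signals of 1872, 1962 and 1897 in control livers and 1813, 1711 and 1719 in soy livers, with Serpina1a the brightest on average (Alb on control 3). Their widest differences were those of Tat (-0.76), Cps1 (-0.47, also in the other periportal list) and Fgb (-0.37). Of the 5 cholangiocyte genes, which mark bile ducts in the portal tract, Epcam was well above background on no array. Their summed signals were 3.60, 2.56 and 2.55 in control and 3.35, 2.50 and 3.53 in soy livers, with Spp1 the brightest. Of the genes well above background on all 6 arrays, Sox9 differed by -0.16, Spp1 by 0.15 and Krt19 by 0.12, and without 1 array these ranged from -0.27 to -0.050, 0.020 to 0.36 and -0.013 to 0.22. Liver endothelial genes (6, Clec4g brightest) summed to 41.9, 42.2 and 41.6 in control and 43.3, 49.4 and 45.4 in soy livers, and Lyve1 (-0.66, from -1.0 without control 2 to -0.036 without control 1), Kdr (0.31) and Cdh5 (0.22, or 0.092 without soy 3) differed most. All 6 Kupffer cell genes (Cd5l brightest) had a higher mean in soy, with a median of 0.24, but 0.46 without control 3 and 0.018 without control 1, where Clec4f (-0.16), C1qa (-0.15) and Adgre1 (-0.071) were lower. The sums were 23.4, 37.8 and 42.3 against 33.5, 39.6 and 51.5, and the widest differences were those of Cd5l (0.45, or 0.20 without control 1), Vsig4 (0.43, or 0.27) and Timd4 (0.34, or 0.11, but 0.55 without control 3). Stellate genes (6, Dcn brightest) had a median of -0.12 (-0.046 without control 1) and sums of 40.3, 35.6 and 39.2 in control and 34.6, 34.6 and 37.6 in soy livers, and the widest differences were those of Col1a1 (-0.99, or -0.61 without control 1), Reln (-0.23, from -0.43 without control 3 to -0.081 without control 1) and Pdgfrb (-0.17, from -0.32 without control 2 to 0.012 without soy 1). Red cell and neutrophil genes (4, Hba-a1 brightest) had a median of 0.50 (0.31 without control 1) and sums of 167, 124 and 179 in control and 137, 283 and 164 in soy livers, soy 2 being the highest, and S100a9 (0.62, from 0.33 without control 1 to 0.97 without control 2), S100a8 (0.58, or 0.29 without control 1) and Alas2 (0.42, from -0.42 without control 2 to 0.85 without control 1) differed most. Hbb-bs, the other gene written for this list, was not matched by symbol and was not analysed here. None of the genes counted here in these cell type lists passed.

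The levels of many liver enzymes follow the time of day, and 3 of the circadian genes differed by more than any zonation gene, without passing. The 13 clock genes, of which none passed, summed to 125, 125 and 74.9 in control and 70.9, 54.9 and 36.7 in soy livers, and Npas2 was well above background on no array. Dbp was the brightest of them on the 3 control arrays and Tef on the 3 soy arrays. The groups did not overlap in 3 genes that were higher in soy (Arntl, Clock and Cry1, against 9.68% of all genes) and in 4 that were lower (Dbp, Nr1d1, Nr1d2 and Bhlhe41, against 10.8%). Bhlhe41 was well above background on 2 control arrays and on no soy array. Dbp, a clock output factor, gave 15.85, 15.97 and 14.86 in control livers and 14.27, 13.86 and 10.76 in soy livers. Soy 3 was the lowest by a wide margin, and the difference was -2.59 (SE 0.85, adjusted p = 0.30), or -1.49 without soy 3. Arntl, the core activator BMAL1, differed by 1.79 (adjusted p = 0.210) and Nr1d1, its repressor REV-ERBα, by -1.58 (adjusted p = 0.106), and neither gene's groups overlapped. The part of collection time in the values of Oat, Etnppl and the zones was not tested.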

How the data were processed

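The authors scanned 1 single-colour array per mouse and deposited the Feature Extraction 11.5.1.1 output, whose median intensities for spots and their surroundings are raw per the file headers. A deposited log2 table has array medians of 7.33 to 7.34, and its values differ from those computed here by at most 0.056. Here the median intensities were background corrected by normexp (offset 50), quantile normalized without control spots and log2 transformed, and each probe was given the mean of its spots after outlier spots had been dropped. The 56605 probes were tested with limma 3.58.1 in R 4.3.3 on 3 control and 3 soy arrays, with Benjamini-Hochberg adjustment over all probes, and 198 passed (118 higher, 80 lower). Symbols came from RefSeq accessions of GRCm38.p6, found for 58.3% of probes. A gene was represented by its probe with the highest mean over 6 arrays. For 13 genes with several of the 46 probes, all probes shared a sign in all but Glul, Tbx3 and Cldn2. Changes are on the log2 scale with offset 50, which understates those of dim probes. The number of arrays limits the precision of each value.

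The zonation genes and the other lists were chosen with earlier results of these data known, and 1 gene of a cell type list and 1 of the other periportal list are not reported here and were left out of the counts and medians. Values on every array are given for 14 fixed markers (Glul, Oat, Cyp2e1, Axin2, Lgr5, Rnf43, Slc1a2, Rhbg, Hal, Cyp2f2, Cdh1, Pigr, Etnppl and Cyp17a1), for genes that passed and for the 3 widest differences in each zone. Sp5, Rida, Wnt2, Aldh3a2 and Dbp were chosen for this after their values were seen. As alternatives, the background correction was left out or given an offset of 16, and a 75th-percentile shift or cyclic loess replaced quantile normalization. The deposited log2 table replaced the computed values. The scanner's processed signal also replaced them, with a 75th-percentile shift in place of quantile normalization. Dim probes were left out, outlier spots kept, trend and robust variance settings used, probes of a gene averaged, and the fold threshold dropped. The slide or the replicate number entered as a block, Hal was placed by list order, and each array was left out in turn. The test was also run on simulated data, whose outcome is not given here and on which no value above rests. Tables were read with Python 3.11.15 and pandas 2.3.3.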

Additional observations from a re-analysis of the deposited data

How the results depend on the processing

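Of the 31 zonation genes, 29 passed in none of 13 processing alternatives and 6 fits without 1 array, and 21 kept their sign in all of them. The changes could not move with dim probes left out, trend and robust settings, the replicate block or the fold threshold dropped. Those settings altered only the p-values or the call, so they did not test the sign. The count of pericentral genes that passed was 1 in place of 0, Oat, with the processed signal (adjusted p = 0.00981), the 75th-percentile shift (0.0425), dim probes left out (0.0302), trend and robust settings (0.0449) and without soy 1. The periportal count was 1, Etnppl, with the processed signal (0.0181), dim probes left out (0.0287), trend and robust settings (0.0416) and without control 3. Without 1 array, both counts ranged from 0 to 1, the pericentral median from -0.21 to -0.0099 (without control 3) and the periportal median from -0.038 to 0.058. Over all probes, 77 passed with an offset of 16, 13138 with the processed signal (11924 higher, 1214 lower), 299 with the 75th-percentile shift, 493 with dim probes left out, 24 with slide as a block, and 23 to 199 without 1 array. The 75th-percentile shift moved the median of all genes to 0.11, so that the zone medians of -0.13 and 0.015 both lay below it. With the processed signal, which was likewise shifted by its 75th percentile and not quantile normalized, the median of all genes was 0.090.

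Genes near 0 changed sign. Hal was at -0.025 with the processed signal, -0.023 with the 75th-percentile shift, -0.00086 with cyclic loess and -0.031 with the slide block. The slide block also turned Cdh1 (-0.094), Cyp2f2 (0.024) and Pigr (-0.021). The mean of a gene's probes turned Cldn2 (0.081) and Tbx3 (0.034), and the 75th-percentile shift turned Znrf3 (0.015). Without 1 array the changes ranged from -0.23 to 0.0045 for Axin2, -0.16 to 0.32 for Cdh1, -0.19 to 0.073 for Cldn2, -0.13 to 0.028 for Cyp2f2, -0.15 to 0.15 for Hal, -0.0067 to 0.12 for Pigr, -0.42 to 0.14 for Slc1a2, -0.34 to 0.17 for Tbx3, -0.077 to 0.12 for Uroc1 and -0.054 to 0.012 for Znrf3. The cause of these differences was not tested.

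The replicate numbers were shared by the groups, and deviations of same-numbered arrays from their group means correlated at 0.12, -0.060 and 0.097. Those of differently numbered arrays correlated at -0.21 to 0.10. Deviations from a group's own mean are tied to each other, so these values cannot decide whether the numbers pair the arrays. With the number as a replicate block, 77 probes passed and no zonation gene did, and the changes themselves stayed the same by construction. The mean spot signal planned as an alternative was not run, since the columns read here hold the median.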
